A study of Arabidopsis thaliana with 12 samples.

Results

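The comparison described here is the response of MYO-OX rosettes of Arabidopsis thaliana to water deficit, read on 4 of the series' 12 arrays, which were chosen by their sample titles: 2 from MYO-OX rosettes under water deficit and 2 from watered MYO-OX rosettes. MYO-OX is a line that overexpresses a myotubularin, in the Col0 background per the series' design text. The sources used here name neither the promoter that drives it nor the number of transgenic lines. Plants were 4 weeks old. In the deficit group water was withheld until the relative water content was 65%, and the watered group went on being watered. Total RNA of vegetative rosettes was extracted with Trizol, and biotin-labelled cRNA was hybridized to Affymetrix arrays with 22746 probe sets besides the controls. The other 8 arrays, 2 per group, came from the atx1 mutant under water deficit, watered atx1, wild type under water deficit and watered wild type, and entered the fit only for the estimate of the spread and for the differences between responses. The labels call the 2 arrays of each group biological replicates, and the number of plants behind each is unknown here. P values therefore measure the spread between these samples.

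Myotubularins are lipid phosphatases that remove the phosphate at the D3 position of the inositol ring of phosphoinositides, the membrane lipids that mark endosomes and recruit proteins from the cytosol. In Arabidopsis, ATX1 is a trithorax-type histone methyltransferase that binds phosphatidylinositol 5-phosphate, a product of myotubularin. Leaves that lose water accumulate abscisic acid, close their stomata, make late embryogenesis abundant (LEA) proteins and dehydrins that protect other proteins and membranes, stop growing and take down part of the photosynthetic apparatus. No probe set was named for the myotubularin gene MTM1 or for ATX1 in the annotation used, so the overexpression itself was not checked here.

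The rosette and treatment labels were set against marker genes. RCA, rubisco activase and a marker of leaf mesophyll, had a mean signal at or above that of 99.6% of probe sets in deficit rosettes and of 99.4% in watered rosettes. Among 6 measured genes of dehydration-induced proteins, 5 were higher in deficit rosettes. PYK10, a beta-glucosidase of ER bodies in roots and seedlings and the 1 root marker measured, had signals of 8.09 and 7.35 in deficit rosettes and of 9.40 and 10.75 in watered rosettes. Its watered mean of 10.08 was above that of at least 92.5% of probe sets. The root marker was thus not low in watered rosettes, and the source of its signal was not tested. No marker of flowers or seeds was measured. A tissue sample does not tell fewer cells of a type from less RNA per cell, and this holds for every change given here.

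MYO-OX rosettes responded to water deficit in many of the probe sets measured, and the genes named here that rose most were LEA4-5 and LEA18, of late embryogenesis abundant proteins, the sugar exporter SWEET15 and the lysine breakdown gene LKR-SDH. Those that fell most were the guard cell gene GC1, the cell wall gene XTH16 and DRT100, and all 4 measured genes of glucosinolate synthesis were lower. A change here is the mean log2 signal of the deficit arrays minus that of the watered arrays, from limma with 1 mean per group, and a probe set was called at a Benjamini-Hochberg adjusted p under 0.05 over all 22746. In all 5616 probe sets were called, 24.7% of those tested. Of these, 2433 were higher in deficit rosettes (10.7%) and 3183 were lower (14.0%). Centring each array on its median moved the median change of all probe sets to 0.15, against 0.04 as deposited, and turned the split to 2999 higher and 2557 lower. Changes of at least 3 log2 units were called for 336 probe sets that rose and 288 that fell, and changes of at least 5 for 51 that rose and 13 that fell. In none of the called probe sets did the deficit and watered values overlap, but neither did they overlap in 56.8% of all probe sets, so separation of the values alone says little with 2 arrays a group.

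Calls were few among dim probe sets. In the dimmest quartile of mean signal 1.49% were called, against 38.6% in the brightest. The gene lists used below were limited by naming, since 8730 probe sets carried no gene in the annotation used. Counted by gene, at 1 probe set each, 9.54% of 13286 genes were called higher and 12.9% lower, and these are the shares that the counts below are read against. The median change of all genes was 0.04.

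Before the gene groups, the arrays themselves differed. Watered replicate 1 stood apart from the other watered arrays. For each array, the deviation of every probe set from its median over the 6 arrays of that water state was taken, and the interquartile range of these deviations was 0.570 on watered replicate 1 of MYO-OX, 0.259 on watered replicate 2, and between 0.232 and 0.390 on the other 4 watered arrays. The deficit arrays of MYO-OX had 0.283 and 0.299, those of wild type 0.267 and 0.191, and those of atx1 0.643 and 0.496. Since the median is over all genotypes, the measure also takes in differences between genotypes. The 2 watered MYO-OX arrays correlated with r = 0.928 over all probe sets and differed with an SD of 0.867, while the 2 deficit arrays had r = 0.975 and an SD of 0.511. A gap over 1 log2 unit between replicates was seen in 5176 probe sets for the watered pair and in 1293 for the deficit pair.

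**Figure D1:**
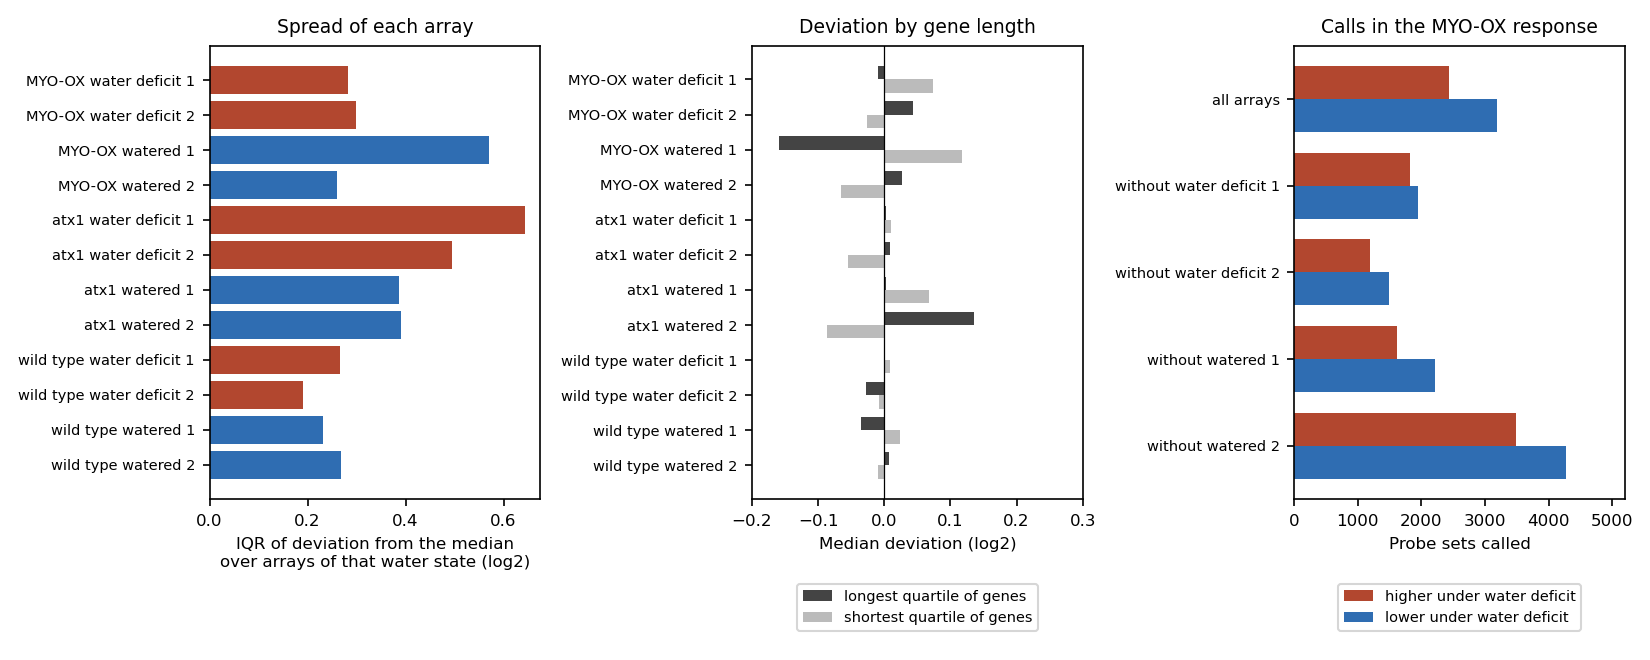
Left, interquartile range of the deviation of each array from the median over the arrays of the same water state (log2), with water deficit in red and watered in blue; middle, median deviation of the longest and the shortest quartile of genes on each array; right, probe sets called higher and lower in MYO-OX with all arrays and with each MYO-OX array left out. Watered replicate 1 of MYO-OX has the widest spread of the watered arrays, at 0.570, and the lowest value for long genes, at -0.16.

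The signals that set watered replicate 1 apart lay mostly below those of the other watered arrays. On it 728 probe sets lay more than 1 log2 unit below every other watered array and 329 lay more than 1 above, where the other watered arrays had 4 to 85 and 10 to 100. The genes with a symbol farthest below were, in order, PRK (phosphoribulokinase of the Calvin cycle), PRXR1 (a peroxidase), CSLA01 (a cellulose synthase-like mannan synthase), CRT1b (a calreticulin), RCA and FER (the receptor kinase FERONIA). PRXR1 read 9.04 on watered replicate 1 and 13.41 on watered replicate 2, and FER read 7.32 and 10.44. The 2 farthest above were ARR15 and ARR16, type-A response regulators of cytokinin signalling. These genes were picked on the values that set them apart and are described only.

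The direction of the deviation went with gene length, taken as the genomic span in the TAIR10.1 annotation. On watered replicate 1 the shortest quartile of genes had a median deviation of 0.12 and the longest quartile one of -0.16, and the rank correlation of deviation with length over 13286 genes was -0.38. On watered replicate 2 the medians were -0.07 and 0.03, and the correlation was 0.27. The watered arrays of the other genotypes had the same signs, with correlations of -0.12 and 0.36 on replicates 1 and 2 of atx1 and of -0.20 and 0.09 on those of wild type. These correlations are across genes of 1 array and carry no test, since the genes share a library. Control probe sets moved too. The 3' probe set of the GAPDH control read 10.06 on watered replicate 1, against 10.97 on watered replicate 2 and 10.79 to 11.28 on the watered arrays of the other genotypes. The mean of the 9 spiked hybridization controls was 9.19 on watered replicate 1 and 7.99 on watered replicate 2, but this gap was not particular to MYO-OX, since atx1 had 9.17 and 7.98 on its watered arrays and replicate 1 read higher than replicate 2 in all 6 groups. The part of gene length, of labelling or of RNA quality in the deviation of this array was not tested.

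The number of calls depended on each MYO-OX array, not on watered replicate 1 alone. Leaving out 1 array leaves 1 array in its group, so the spread is then taken from the other groups. The gap between the 2 arrays of that group no longer counts, and this limit holds for every such count and call given here. With watered replicate 1 left out, 3838 probe sets were called, 1618 higher and 2220 lower, and with watered replicate 2 left out 7766 were called. Of the 5616 calls, 3302 were also made without watered replicate 1, which is 58.8% of them and 86.0% of the calls made without it. By gene, 6.47% were called higher and 8.17% lower without it. With all arrays, 14.7% of the longest quartile of genes were called higher and 8.82% lower, against 5.66% and 10.4% of the shortest quartile. The median change of the longest quartile was 0.27 against watered replicate 1 and 0.11 against watered replicate 2. In the shortest quartile these medians were -0.04 and 0.12. Leaving out deficit replicate 1 gave 3768 calls, and leaving out deficit replicate 2 gave 2686, the 1 omission that moved the count by over 1.5 times. Of the 73 genes named below that were called, 63 were also called without watered replicate 1 and 65 without watered replicate 2. The calls lost without replicate 2 were those of ATG8A, ATG8B, IAA34, WRKY53, UGT74B1, UGT74C1, GSTU28 and TUA6.

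Genes of dehydration-induced proteins gave the largest rises. Of 6 measured members of that list 5 rose, with a median change of 3.77, and all 5 were also called without watered replicate 1. LEA4-5, a group 4 LEA protein, had signals of 12.46 and 12.89 in deficit rosettes, against 6.08 and 5.13 in watered rosettes. Both deficit arrays were more than 6 units above both watered arrays, and the change was 7.07 ± 0.68 (SE, limma, adjusted p = 0.000482), a 134-fold difference in signal. LEA18 had 10.43 and 10.74 in deficit rosettes, against 4.10 and 3.79 in watered rosettes, with a change of 6.65 ± 0.59 (limma, adjusted p = 0.000349). In watered rosettes its mean was at or above that of only 16.1% of probe sets, so its watered level was near the bottom of the scale.

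The other members that rose had smaller changes. Their deficit means were at or above those of at least 99.96% of probe sets, near the top of the scale, and the part of this limit in their changes was not tested. LTI30, a dehydrin that binds membranes, had 13.78 and 14.03 in deficit rosettes and 9.98 and 9.79 in watered rosettes, a change of 4.02 ± 0.50 (limma, adjusted p = 0.00125). COR47, an acidic dehydrin, had 13.96 and 14.14 in deficit rosettes and 10.68 and 11.85 in watered rosettes. Its mean was at or above that of 99.99% of probe sets under deficit, and its change was 2.78 ± 0.38 (limma, adjusted p = 0.00179). COR15A, a chloroplast protein that protects membranes from freezing and drying, had 13.74 and 13.71 in deficit rosettes and 10.02 and 10.38 in watered rosettes, a change of 3.53 ± 0.52 (limma, adjusted p = 0.0024). Its neighbour in the family, COR15B, had 9.39 and 9.31 in deficit rosettes and 8.29 and 8.58 in watered rosettes, and was not called (change 0.91 ± 0.80, limma, adjusted p = 0.472). The family found by name, with 7 measured members of which LEA4-5 and LEA18 are shared with the first list, had 5 called higher and none lower. Besides those 2 it held LEA, a dehydrin gene, with a change of 4.59 ± 0.66, and the LEA genes AtLEA4-1 and AT2G44060, which the naming rule did not take and whose changes were 4.46 and 1.16. AT2G44060 was not called without watered replicate 1 (limma, adjusted p = 0.125).

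**Figure D2:**
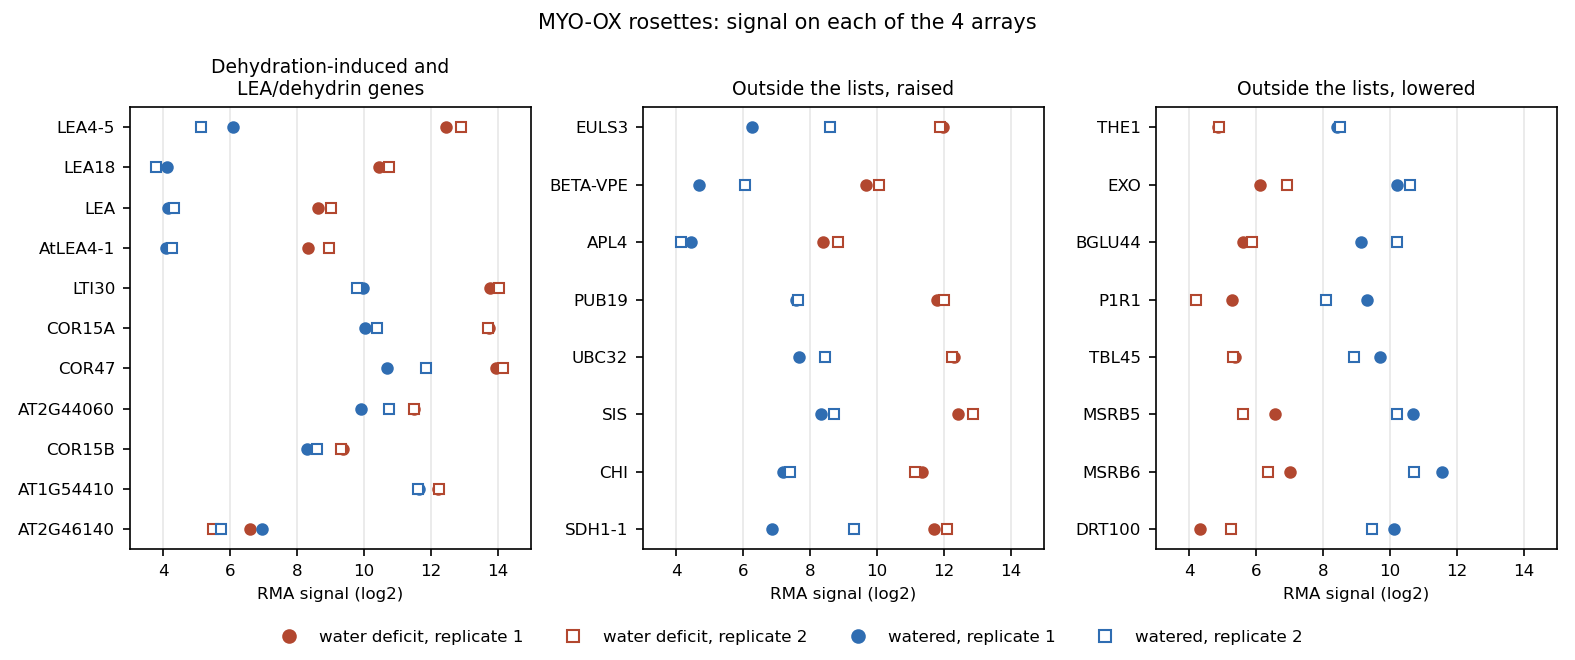
RMA signal (log2) of each gene on the 4 MYO-OX arrays, with water deficit in red, watered in blue, replicate 1 as filled circles and replicate 2 as open squares; the left panel holds the dehydration-induced and LEA lists, the others the genes outside the lists with the largest called changes. The genes of the middle and right panels were chosen to have no overlap of deficit and watered values, and the watered replicates of EULS3 and SDH1-1 lie more than 2 units apart.

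Breakdown of lysine and branched-chain amino acids, which feeds electrons into respiration when sugar is short, was read through 4 genes, of which 2 rose. LKR-SDH, the enzyme that opens lysine breakdown, had 12.18 and 12.55 in deficit rosettes, against 7.10 and 8.02 in watered rosettes. The groups were 4 units apart at the nearest values, and the change was 4.80 ± 0.47 (limma, adjusted p = 0.000506). IVD, isovaleryl-CoA dehydrogenase, had 9.60 and 10.57 in deficit rosettes and 7.48 and 8.13 in watered rosettes. Its change of 2.28 ± 0.66 passed the test (limma, adjusted p = 0.037) but not without watered replicate 1 (adjusted p = 0.155). MCCA and MCCB, the subunits of methylcrotonyl-CoA carboxylase, had changes of 2.00 ± 1.27 and 0.59 ± 0.74 and were not called. All 4 genes read lower on watered replicate 1 than on watered replicate 2, with a median gap of -1.23, and their median change was 2.78 against the first and 1.50 against the second.

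ALDH7B4, a stress-induced aldehyde dehydrogenase, had 13.10 and 13.41 in deficit rosettes and 8.49 and 10.16 in watered rosettes, a change of 3.93 ± 0.51 (limma, adjusted p = 0.00149). Of the other antioxidant genes measured, the thylakoid ascorbate peroxidase TAPX fell to 7.86 and 8.27 in deficit rosettes, against 9.45 and 9.60 in watered rosettes. The stromal form SAPX read between 8.36 and 8.74 on all 4 arrays and was not called (change -0.25, limma, adjusted p = 0.373). The 2 organelle forms of the same enzyme thus gave values on different sides of the threshold, and the difference between them was not tested.

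Proline metabolism was measured only through PRODH2, a proline dehydrogenase, and starch and sucrose breakdown only through VAC-INV, a vacuolar invertase. Neither was called. PRODH2 had 6.30 and 7.92 in deficit rosettes and 5.86 and 7.92 in watered rosettes, so that the groups overlapped. VAC-INV had 10.31 and 9.89 in deficit rosettes, against 7.74 and 9.75 in watered rosettes, and only watered replicate 1 was far from the others.

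Members of the sugar transporter list were called in both directions. Of 16 measured members 2 rose and 3 fell, against 9.54% and 12.9% of all genes, and the median change of the list was 0.001. Whether these counts differ from the shares over all genes was not tested. SWEET15, a sucrose exporter also known as a senescence-associated gene, had 11.32 and 11.01 in deficit rosettes, against 7.03 and 5.01 in watered rosettes, a change of 5.14 ± 0.67 (limma, adjusted p = 0.00144). SWEET4, a hexose transporter of the plasma membrane, had 11.62 and 11.23 in deficit rosettes, against 6.78 and 6.50 in watered rosettes, a change of 4.79 ± 0.19 (limma, adjusted p = 4.49e-05). SWEET16, which carries sugars across the vacuolar membrane, had 4.44 and 4.77 in deficit rosettes, against 8.27 and 7.71 in watered rosettes, a change of -3.38 ± 0.38 (limma, adjusted p = 0.000902). The other 2 that fell were SWEET17, a fructose carrier of the vacuolar membrane, at -2.10, and SWEET11, a sucrose exporter of the phloem, at -0.74. These last 2 were named after their values were seen. All 5 were also called without watered replicate 1, where a further member was called higher.

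Autophagy genes had 3 of 9 measured members higher and none lower. ATG8H, a ubiquitin-like protein that coats autophagosomes, had 10.87 and 11.26 in deficit rosettes, against 7.86 and 6.26 in watered rosettes, a change of 4.001 ± 0.57 (limma, adjusted p = 0.00217). ATG8A and ATG8B, members of the same family, had changes of 1.36 ± 0.36 and 1.23 ± 0.32. All 9 genes read as high or higher on watered replicate 1 as on watered replicate 2, and the count was 5 higher without replicate 1 and 1 without replicate 2, where ATG8A and ATG8B were not called (limma, adjusted p = 0.098 and 0.083).

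Among 43 measured UDP-glycosyltransferases, enzymes that attach sugars to hormones and secondary metabolites, 12 rose and 5 fell, with a median change of 0.22. UGT76E12 had 9.52 and 10.10 in deficit rosettes, against 6.35 and 5.47 in watered rosettes, a change of 3.90 ± 0.39 (limma, adjusted p = 0.000552). UGT87A2 rose by 3.45 ± 0.46 and UGT76E11 by 3.43 ± 0.40. Without watered replicate 1 the counts were 9 and 4. Of 22 cytochromes P450 measured, 2 rose and none fell, CYP71B26 at 1.93 ± 0.37 and CYP71B6 at 1.22 ± 0.27, and the share that rose was near the 9.54% of all genes. CYP71B6 was not called without watered replicate 1 (limma, adjusted p = 0.0639). Of 12 glutathione transferases 1 rose, GSTU28, and 3 fell.

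Outside the lists, the 8 genes with a symbol that rose most had changes between 3.82 and 4.50. EULS3, a lectin induced by salt and abscisic acid, had 11.97 and 11.90 in deficit rosettes, against 6.27 and 8.59 in watered rosettes, a change of 4.50 ± 0.79 (limma, adjusted p = 0.00528). BETA-VPE, a vacuolar processing enzyme that matures stored proteins, had 9.67 and 10.06 in deficit rosettes, against 4.69 and 6.07 in watered rosettes. APL4, a large subunit of the starch synthesis enzyme ADP-glucose pyrophosphorylase, had 8.38 and 8.83 in deficit rosettes, against 4.43 and 4.13 in watered rosettes. It had the smallest SE of the 8, with a change of 4.32 ± 0.19 (limma, adjusted p = 5.87e-05). PUB19, a ubiquitin ligase and negative regulator of abscisic acid responses, rose by 4.29 ± 0.25. UBC32, a ubiquitin-conjugating enzyme of the endoplasmic reticulum, rose by 4.22 ± 0.47. SIS, a salt-induced serine-rich protein, rose by 4.13 ± 0.79, and CHI, which at this locus is a chitinase, by 3.96 ± 0.38. SDH1-1, the flavoprotein subunit of succinate dehydrogenase, had 11.71 and 12.11 in deficit rosettes, against 6.86 and 9.31 in watered rosettes. Its change was 3.82 with all arrays and 2.60 without watered replicate 1, and it was called both ways. The call did not hold for every MYO-OX array left out in turn.

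Among genes of cell wall loosening more fell than rose. Of 29 measured expansins and xyloglucan endotransglucosylases, which let the wall stretch, 9 fell and 2 rose, against 12.9% and 9.54% of all genes, and the median change of the list was -0.15. XTH16 had 3.99 and 4.40 in deficit rosettes, against 9.83 and 8.78 in watered rosettes, a change of -5.11 ± 0.55 (limma, adjusted p = 0.000746). EXPA8, an alpha-expansin, had 5.003 and 4.93 in deficit rosettes, against 9.05 and 9.08 in watered rosettes, a change of -4.10 ± 0.44 (limma, adjusted p = 0.000735). The family was not uniform, since EXLB1, an expansin-like gene, had 13.12 and 12.71 in deficit rosettes, against 8.59 and 9.06 in watered rosettes, a change of 4.09 ± 0.32 (limma, adjusted p = 0.00027). Without watered replicate 1 the counts were 6 lower and 1 higher. In the deficit group 20 of the 29 read higher on replicate 1 than on replicate 2.

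Wall synthesis genes followed in part. Of 6 measured genes for pectin and cellulose-like enzymes 3 fell, and their median change was -2.17. CSLA03, a mannan synthase, had 3.81 and 5.09 in deficit rosettes, against 8.98 and 7.79 in watered rosettes, a change of -3.94 ± 0.60 (limma, adjusted p = 0.00283). The pectin methylesterases ATPMEPCRB and PME61 fell by 3.25 ± 0.42 and by 1.89 ± 0.42. CSLA01, which also belongs to that family, had 5.78 and 5.51 in deficit rosettes, against 6.60 and 9.61 in watered rosettes. It was not called with all arrays (change -2.46 ± 1.095, limma, adjusted p = 0.144). Without watered replicate 1, which leaves 1 watered array, its change was -3.96. The pectin methylesterases AT4G02300 and PMEPCRF had changes of -0.12 and 0.14 and were not called.

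Tubulins, the subunits of microtubules, had 2 of 5 measured members lower. TUB5 had 5.09 and 6.22 in deficit rosettes, against 7.75 and 9.57 in watered rosettes, a change of -3.003 ± 0.65 (limma, adjusted p = 0.0125). TUA6 fell by 1.50 ± 0.37, and TUB1, TUB9 and TUB7 were not called, at -1.34, -0.47 and -0.12. Neither of 2 measured mitotic kinesins was called. Among 5 histone genes, HIS1-3, the drought-induced variant of linker histone H1, had 11.39 on both deficit arrays, against 7.70 and 8.86 in watered rosettes, a change of 3.11 ± 0.65 (limma, adjusted p = 0.0107). HTB2, a histone H2B, fell by 1.46 ± 0.45. Without watered replicate 1 neither histone was called (limma, adjusted p = 0.0567 and 0.231).

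GC1, a gene expressed in guard cells, fell to the signal of dim probe sets. It had 4.24 and 4.09 in deficit rosettes, against 10.25 and 8.91 in watered rosettes, and its deficit mean was at or above that of 20.4% of probe sets. The change was -5.42 ± 0.45 (limma, adjusted p = 0.000284). With the deficit signal near the bottom of the scale, no fold is given. FAMA, the transcription factor of the last division of the stomatal lineage, had 6.42 and 6.25 in deficit rosettes, against 7.01 and 7.14 in watered rosettes, a change of -0.74 ± 0.16 (limma, adjusted p = 0.011). MUTE and SPCH, which act earlier in that lineage, read between 3.92 and 4.94 on all 4 arrays and were not called. Both calls were also made without watered replicate 1. With each MYO-OX array left out in turn, the call of GC1 always held and that of FAMA did not.

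All 4 measured genes of glucosinolate synthesis, which makes the sulfur-containing defence compounds of the cabbage family, were lower. GSTU20, a glutathione transferase of that pathway, had 7.80 and 7.87 in deficit rosettes, against 11.91 and 12.27 in watered rosettes, a change of -4.26 ± 0.41 (limma, adjusted p = 0.000482). BCAT4, which opens methionine chain elongation, had 9.55 and 8.48 in deficit rosettes, against 12.13 and 12.58 in watered rosettes, a change of -3.34 ± 0.43 (limma, adjusted p = 0.00139). The glucosyltransferases UGT74B1 and UGT74C1 fell by 1.88 ± 0.50 and by 1.70 ± 0.46. These 4 calls were also made without watered replicate 1, and without watered replicate 2 only those of GSTU20 and BCAT4 were.

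Defence and senescence genes were few in the annotation used. PDF1.2, a defensin induced by jasmonate, had 5.34 and 4.60 in deficit rosettes, against 9.24 and 7.72 in watered rosettes, a change of -3.51 ± 0.75 (limma, adjusted p = 0.0119). With watered replicate 1 left out it was not called (limma, adjusted p = 0.0627). THI2.1, a thionin, had 10.02 and 8.21 in deficit rosettes, against 9.60 and 10.004 in watered rosettes, and was not called. Both measured genes of the senescence list fell: WRKY53, a transcription factor that promotes leaf senescence, by 1.75 ± 0.46, and SAG101, a lipase-like protein of defence signalling, by 1.30 ± 0.25. SAG101 had 3.74 and 3.79 in deficit rosettes, against 4.66 and 5.47 in watered rosettes. Its deficit mean was at or above that of 8.78% of probe sets, near the bottom of the scale. WRKY53 was not called without watered replicate 1 or without watered replicate 2 (limma, adjusted p = 0.06 and 0.0698). Of 7 measured WRKY factors 2 rose, ZAP1 by 1.98 ± 0.51 and WRKY6 by 1.89 ± 0.40. PYK10, with the values given above, fell by 2.35 ± 0.52 (limma, adjusted p = 0.013).

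The 8 genes outside the lists that fell most had changes between -5.01 and -3.57. DRT100, a leucine-rich repeat protein first tied to DNA damage tolerance, had 4.33 and 5.25 in deficit rosettes, against 10.12 and 9.48 in watered rosettes, a change of -5.01 ± 0.58 (limma, adjusted p = 0.000989). The neighbouring methionine sulfoxide reductase genes MSRB6 and MSRB5, which repair oxidized methionine, fell by 4.46 ± 0.56 and by 4.36 ± 0.44. As similar copies their probe sets may share signal, which was not tested. THE1, the receptor kinase THESEUS1 that senses the state of the cell wall, had 4.87 and 4.91 in deficit rosettes, against 8.41 and 8.51 in watered rosettes. Its replicates were within 0.1 of each other in both groups, and its change was -3.57 ± 0.20 (limma, adjusted p = 0.000107). EXO, a cell wall protein of brassinosteroid-promoted growth, fell by 3.89 ± 0.53. BGLU44, a beta-glucosidase, fell by 3.92 ± 0.71. TBL45, of a family that acetylates wall polysaccharides, fell by 3.96 ± 0.34, and P1R1 by 3.95 ± 0.46.

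Hormone genes were measured in part. IAA29, an auxin-responsive repressor, had 4.81 and 4.77 in deficit rosettes, against 8.96 and 8.83 in watered rosettes, a change of -4.10 ± 0.27 (limma, adjusted p = 0.000198). It was 1 of 7 measured auxin-responsive genes to fall, and IAA34 was the 1 that rose, by 0.69 ± 0.20. The cytokinin response regulators ARR15 and ARR16 were decided by 1 array. ARR15 had 3.99 and 3.98 in deficit rosettes, against 8.69 and 4.66 in watered rosettes, with 4.31 to 6.57 on the watered arrays of the other genotypes. ARR16 had 6.72 and 6.93 in deficit rosettes, against 8.30 and 5.14 in watered rosettes. Neither was called with all arrays. With watered replicate 2 left out, which leaves 1 watered array, the change of ARR15 was -4.70.

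**Figure D3:**
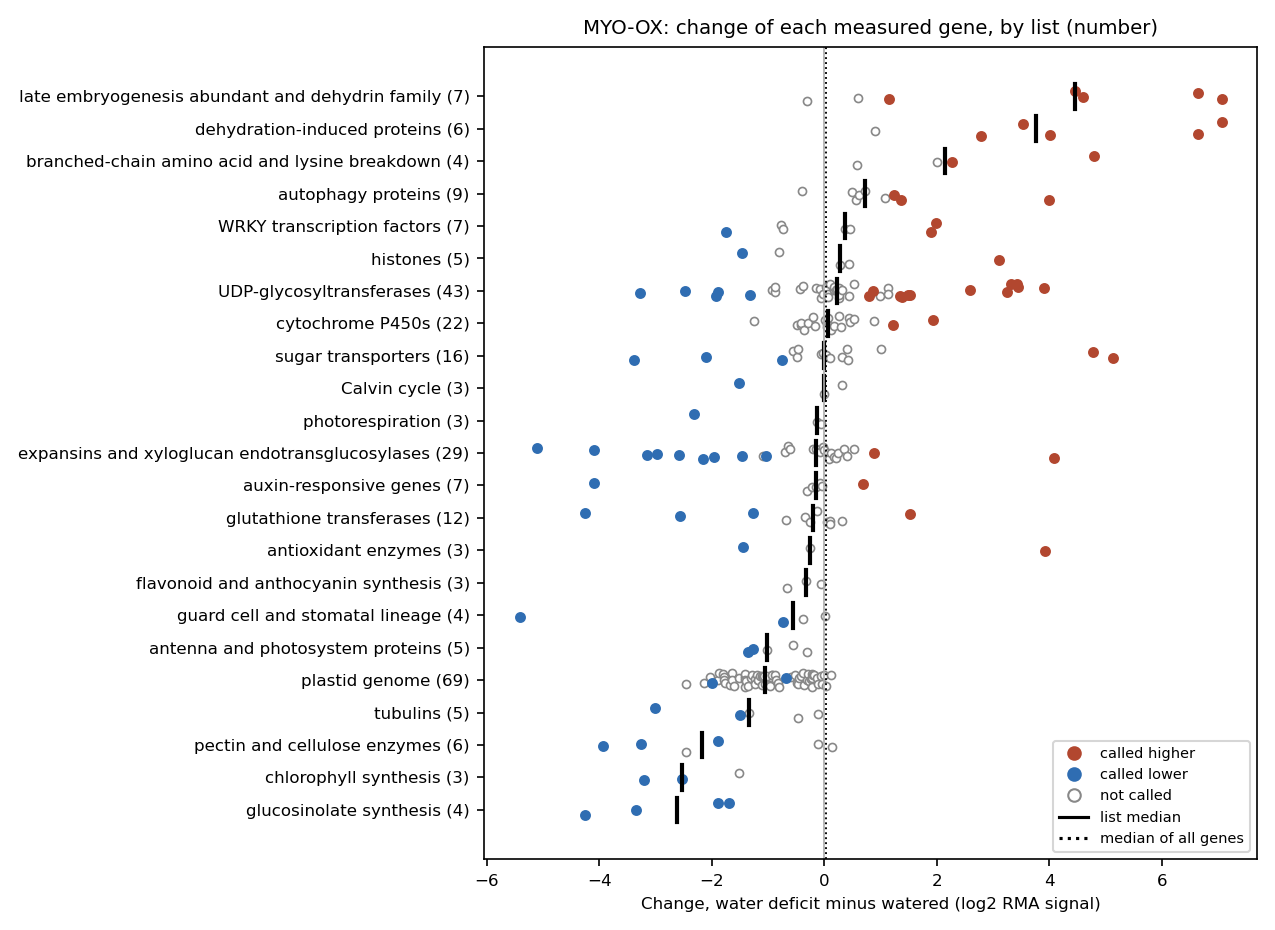
Change of each measured gene in MYO-OX (water deficit minus watered, log2 RMA signal) for the lists with at least 3 measured members, the number measured in brackets; filled red and blue points were called higher and lower, open points were not called, bars are list medians and the dotted line is the median of all genes, 0.04. The LEA and dehydration-induced lists have medians of 4.46 and 3.77, and the glucosinolate list one of -2.61.

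Of the genes of chlorophyll synthesis, the Calvin cycle, photorespiration and the photosystems some fell, and for others watered replicate 1 decided the value. CHLM, the magnesium protoporphyrin methyltransferase, had 9.37 and 9.09 in deficit rosettes, against 11.86 and 11.68 in watered rosettes, a change of -2.54 ± 0.21 (limma, adjusted p = 0.000284). CHLI2, a subunit of magnesium chelatase, had 5.66 and 5.77 in deficit rosettes, against 9.59 and 8.27 in watered rosettes, a change of -3.21 ± 0.50 (limma, adjusted p = 0.00302). PORB, the light-dependent protochlorophyllide reductase, had 8.82 and 8.40 in deficit rosettes, against 8.66 and 11.57 in watered rosettes. Watered replicate 1 lay among the deficit values, the watered arrays of the other genotypes read 9.80 to 11.63, and PORB was not called (change -1.51 ± 0.79, limma, adjusted p = 0.211). Without that array, which leaves 1 watered array, the change of PORB was -2.97.

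In the Calvin cycle, SBPASE, sedoheptulose bisphosphatase, had 10.47 and 9.90 in deficit rosettes, against 11.61 and 11.78 in watered rosettes, a change of -1.51 ± 0.32 (limma, adjusted p = 0.0119). PRK had 10.89 and 10.61 in deficit rosettes, against 9.25 and 12.27 in watered rosettes. The deficit values lay between the 2 watered values, which were 3 units apart, and the change of -0.01 ± 0.77 is the mean of changes that point in opposite directions, 1.50 against watered replicate 1 and -1.52 against watered replicate 2. With either watered array left out, the gap between them does not enter the spread, so such a fit does not decide the direction. RCA had 12.44 and 12.73 in deficit rosettes, against 10.81 and 13.72 in watered rosettes. Its change was 1.77 against watered replicate 1 and -1.13 against watered replicate 2, and the watered arrays of the other genotypes read 13.04 to 13.78.

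Photorespiration genes showed the same split. GLDT, a subunit of glycine decarboxylase, had 9.42 and 9.32 in deficit rosettes, against 11.44 and 11.92 in watered rosettes, a change of -2.31 ± 0.31 (limma, adjusted p = 0.0016). HPR, hydroxypyruvate reductase, had 11.28 and 11.32 in deficit rosettes, against 10.44 and 12.42 in watered rosettes, and changed by 0.86 against watered replicate 1 and by -1.12 against watered replicate 2. GLYK, glycerate kinase, was not called with all arrays or without either watered array. Of 5 antenna and photosystem genes, the minor antenna proteins LHCB4.2 and LHCB4.3 fell by 1.35 ± 0.24 and by 1.27 ± 0.31. PSBY, LHCB4.1 and PSBW, also of photosystem II, had changes of -1.01, -0.31 and -0.55 and were not called. Without watered replicate 1 the count was 3 lower, LHCB4.2, PSBY and LHCB4.1, while LHCB4.3 was not called (limma, adjusted p = 0.0985).

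**Figure D4:**
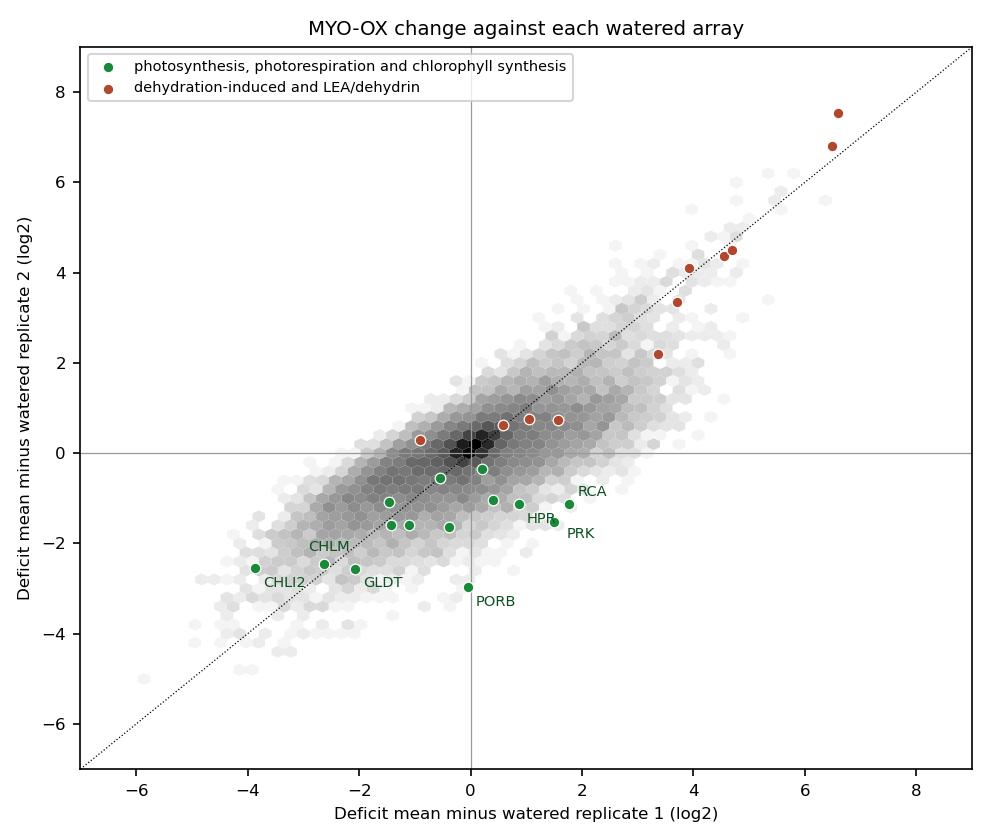
Mean of the 2 deficit arrays minus watered replicate 1 (horizontal) and minus watered replicate 2 (vertical), both log2, for all probe sets as grey density, with photosynthesis, photorespiration and chlorophyll synthesis genes in green and dehydration-induced and LEA genes in red; on the dotted line both arrays give the same change. PRK, RCA and HPR lie right of 0 and below it, while LEA4-5 and LEA18 lie near the line at the top right.

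Opposite signs against the 2 watered arrays were seen in 5647 probe sets, 24.8% of all. None of the called ones was among them, which follows from their lack of overlap and adds nothing to it. In 59 probe sets the deficit mean was more than 1 above watered replicate 1 and more than 1 below watered replicate 2, and in 1 the reverse. The first set held PRK, RCA and PRXR1 and the plastid genes psaA and atpA among genes with a symbol, and the 1 reverse case was ARR16. The root mean square change was 1.39 against watered replicate 1 and 1.099 against watered replicate 2. Taken against the mean of both watered arrays it was 1.17 in MYO-OX and 1.101 in wild type.

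Few genes of the plastid genome passed the test, 2 of 69 lower and none higher, a smaller share than the 12.9% of all genes called lower. Of the 69, 67 had a change below 0, the median was -1.05 and the range -2.46 to 0.12. The 2 called were rpl33, a ribosomal protein, and psbE, a subunit of cytochrome b559, at -1.99 ± 0.48 and -0.67 ± 0.21 (limma, adjusted p = 0.019 and 0.0466). Neither was called without watered replicate 1 (limma, adjusted p = 0.0757 and 0.228), and 3 were called lower with only the 4 MYO-OX arrays. The median change was -0.85 against watered replicate 1 and -1.09 against watered replicate 2. In wild type 63 of 69 were below 0, with a median of -0.61. This list was drawn up after the data were seen, and as transcripts of 1 organelle its members are not independent.

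Anthocyanin genes differed between the deficit replicates. DFR, dihydroflavonol reductase, had 10.19 and 8.35 in deficit rosettes, against 9.82 and 9.37 in watered rosettes. The anthocyanin glucosyltransferases UGT75C1 and UF3GT had 8.26 and 6.49, and 8.83 and 6.64, on the deficit arrays, against 8.49 and 7.59, and 7.67 and 7.94, on the watered arrays. In each of the 3 the deficit replicates stood on either side of at least 1 watered value, with replicate 1 higher by a median of 1.85, and none was called. WSD1, a wax ester synthase and the 1 cuticular wax gene measured, had 8.22 and 7.94 in deficit rosettes, against 6.73 and 5.42 in watered rosettes, a change of 2.01 ± 0.39 (limma, adjusted p = 0.00804). Hsp70-2, the 1 heat shock gene measured, rose by 1.75 ± 0.45 and was not called without watered replicate 1 (limma, adjusted p = 0.122). The clock gene GI was not called (change 1.85 ± 0.65, limma, adjusted p = 0.0732).

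No difference between the MYO-OX response and the wild-type response passed the test. Of 22746 probe sets 0 were called (0%), the smallest adjusted p was 1.00, and 276 had an unadjusted p under 0.05 in limma, 1.21% of all. That last count became 3374 without watered replicate 2 of MYO-OX, 998 without deficit replicate 2 and 166 without deficit replicate 1 of wild type, with 0 called in each case. The 95% interval of the difference had a median half-width of 0.94 log2 units over all probe sets and of 1.09 over those called in MYO-OX. Smaller differences were not detectable in a typical gene at this number of arrays. These intervals were not adjusted for the number of probe sets, so larger differences could go uncalled too. The 1.21% of probe sets under the unadjusted limit is also a smaller share than that limit gives where no response differs. The test may thus be conservative here, which was not tested. Of the probe sets called in MYO-OX 99.5% had a wild-type change of the same sign, against 79.5% of all probe sets, and none was called the other way in wild type. Among the genes named above, LEA4-5 changed by 7.07 in MYO-OX and 6.38 in wild type, with an interval of the difference of -1.50 to 2.89. GC1 changed by -5.42 in MYO-OX and -5.39 in wild type (interval -1.47 to 1.42). WSD1 changed by 2.01 in MYO-OX and 0.78 in wild type (interval -0.03 to 2.49), and LTI30 by 4.02 and 5.25 (interval -2.86 to 0.39). PUB19 changed by 4.29 in MYO-OX and 3.43 in wild type. Its interval, 0.05 to 1.67, was not adjusted for the number of genes.

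**Figure D5:**
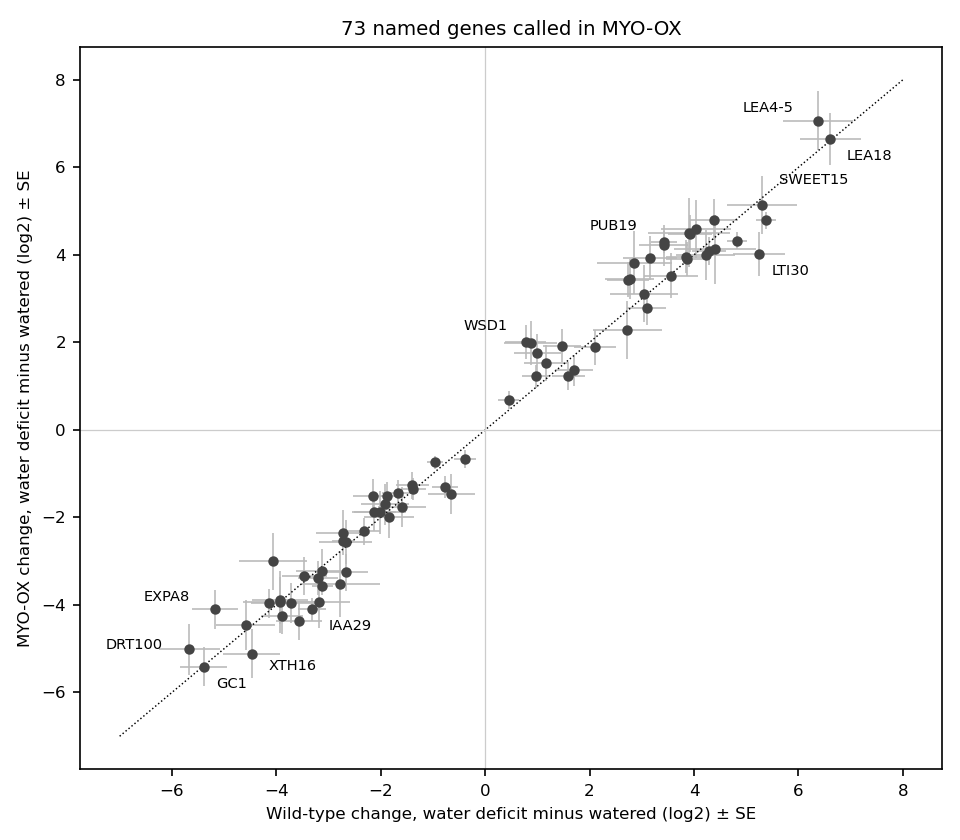
Change under water deficit in MYO-OX (vertical) and in wild type (horizontal), log2 with SE from limma, for the 73 named genes called in MYO-OX; the dotted line marks equal changes. The points lie along the line, from LEA4-5 at 7.07 and 6.38 to GC1 at -5.42 and -5.39.

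The MYO-OX response differed from the atx1 response in 50 probe sets (0.220%), 23 more positive and 27 more negative in MYO-OX, and 41 of the 50 were also called in the MYO-OX response itself. Of these, 7 genes with a symbol were taken by the naming rule. UGT76E11 changed by 3.43 in MYO-OX and by -1.003 in atx1, a difference of 4.43 ± 0.56 (limma, adjusted p = 0.047). ATGLR1.2, a glutamate receptor-like channel, had 6.47 and 6.94 in deficit MYO-OX rosettes, against 4.08 and 4.03 in watered ones, while all 4 atx1 arrays read between 4.06 and 4.41. UGT85A3 gave a like pattern, with changes of 2.60 in MYO-OX and 0.09 in atx1. IAA29 fell by 4.10 in MYO-OX and had a change of -0.35 in atx1, where the watered arrays read 5.50 and 4.69. For CYP71B31 and DELTA-VPE the change was in atx1: in MYO-OX they changed by 0.17 and -0.05, against 4.19 and 2.93 in atx1. ZW9 changed by 1.23 in MYO-OX and 4.36 in atx1, and its watered signals were 10.30 and 10.96 in MYO-OX, against 4.48 and 4.82 in atx1. With watered replicate 2 of MYO-OX left out the count of 50 became 1558, without watered replicate 1 it became 25, and without either watered atx1 array it was 0.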

How the data were processed

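The authors deposited log2 signals, which they made from the scanned arrays with RMA per the submitters' processing notes. No RMA version is named there. The medians of the 4 MYO-OX columns were 5.89 to 6.16. Arrays give no counts, and precision is limited by the number of arrays. Of 22810 probe sets, 64 controls were set apart. The annotation table listed 14016, of which 13513 had 1 gene and 503 several. Of those with 1 gene, 13436 matched a locus of TAIR10.1, used for names and lengths only. They stood for 13286 genes, 1534 with a symbol, and the brightest probe set was used for each gene. Lists held 323 entries in 31 lists by locus, 45 measured, plus 24 lists by name words and the plastid genome.

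In limma 3.58.1 (R 4.3.3), 6 group means were estimated from the 12 arrays, with 6 residual and 2.34 prior degrees of freedom. P values were two-sided and Benjamini-Hochberg adjusted over all probe sets within a comparison. The script was tested on simulated data. Named genes were up to 3 called members a list, all members of lists with at most 6 measured, and outside the lists the 8 raised and 8 lowered genes with a symbol, non-overlapping groups and the largest changes. For each difference of responses, up to 4 genes each way were named. The members, lists and rules were chosen with earlier results of these data known. Alternatives were a replicate block, only the arrays compared, median centring, repeated quantile normalization, the dimmest 40% left out, an intensity trend, array weights, a single probe set for each gene, and leaving out arrays in turn.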

Additional observations from a re-analysis of the deposited data

Results flagged for a closer look

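The response of MYO-OX differed from that of atx1 in 50 probe sets by a test of the difference itself (limma, Benjamini-Hochberg adjusted over all probe sets), and this difference was picked out for a closer look together with the 7 genes with a symbol named from it. The difference, MYO-OX minus atx1, was 4.43 for UGT76E11, 2.51 for UGT85A3 and 2.40 for ATGLR1.2, a glutamate receptor-like gene. It was -4.02 for CYP71B31, -3.76 for IAA29, -3.14 for ZW9 and -2.98 for DELTA-VPE, a vacuolar processing enzyme. The wild-type changes of these 7 genes had the signs seen in MYO-OX, for example 2.73 for UGT76E11 and -3.32 for IAA29. The watered signals of some of these genes also lay apart, at 8.96 and 8.83 in MYO-OX, against 5.50 and 4.69 in atx1, for IAA29, at 10.30 and 10.96, against 4.48 and 4.82, for ZW9, and at 4.24 and 3.99, against 6.13 and 5.83, for DELTA-VPE. All 50 calls rest on 2 arrays a group, and none was made when the fit was limited to the arrays of these genotypes.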

How the results depend on the processing

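The count of 5616 calls in the MYO-OX response became 1176 with only the arrays compared, 2988 with array weights and 2902 with 1 probe set per gene (fewer tested), and ran from 2686 to 7766 with each MYO-OX array left out. The difference from wild type had 0 calls under every alternative except without wild type watered replicate 1, so it ran from 0 to 1. The 50 calls of the difference from atx1 became 0 with only the arrays compared, 10 with array weights, 27 with 1 probe set per gene, 80 with repeated quantile normalization and 89 with an intensity trend, and ran from 0 to 1558 with arrays left out, among them 3 and 4 without deficit replicate 1 and 2 of MYO-OX and 5 and 108 without those of atx1. With 2 arrays around 1 group mean, array weights are equal within a group whatever the values. They were 0.41 for both watered MYO-OX arrays and could not discount watered replicate 1 alone. With a replicate block the counts were 6766, 0 and 22. The labels tie replicate numbers to no shared batch. Deviations of same-numbered arrays correlated at 0.21 between deficit and watered MYO-OX, at 0.51 to 0.56 among the watered groups, and at -0.29 to 0.56 over all 15 pairs of groups, so the numbers were not taken as pairs. Of 73 named genes called, 72 were called with the block, 63 without watered replicate 1, 45 whichever MYO-OX array was left out, 39 with only the arrays compared and 36 under every alternative. The cause of these moves was not tested.

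The sign turned only in genes that were not called with all arrays. For MYO-OX arrays left out this was fixed in advance, since no called gene had overlapping deficit and watered values. Centring gave 0.10 for PRK, 0.041 for GLYK and 0.043 for UF3GT, and repeated quantile normalization 0.048 for PRK and -0.00723 for SPCH. With each MYO-OX array left out the change ran from -1.52 to 1.50 for PRK, -1.13 to 1.77 for RCA, -1.12 to 0.86 for HPR, -0.54 to 0.40 for GLYK, -1.04 to 0.41 for LHCB4.1, -0.81 to 1.25 for PRODH2, -0.18 to 1.36 for MCCB, -1.48 to 1.69 for ARR16, -1.25 to 0.60 for DFR, -1.54 to 0.23 for UGT75C1, -1.16 to 1.03 for UF3GT, -1.60 to 0.22 for THI2.1, -0.32 to 0.33 for SPCH, -0.24 to 0.0087 for AT4G02300, -0.37 to 0.14 for TUB7, -0.31 to 1.18 for HON4 and -0.72 to 0.99 for PMEPCRF.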
